A study of Mus musculus with 79 samples.

Results

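Macrophages were sorted from the regenerative bridge, the tissue that forms between the nerve ends, 5 days after a common peroneal to tibial (CP-TIB) nerve graft in mice, and 9 libraries made after delayed repair were compared with 8 made after immediate repair. These 17 libraries were taken by their labels, as the day 5 macrophage libraries of either repair group, from 79 libraries in the series. After delayed repair the freshly cut common peroneal branch was joined to a tibial stump that had been cut 8 weeks before. After immediate repair the stump was cut at grafting. The study describes a sham incision 8 weeks earlier for the immediate group of this graft model, though not specifically for the sorted mice. In both groups a silicone conduit lay at the join, 1 mouse gave 1 library of about 1000 sorted cells, and the delayed group held 4 males and 5 females and the immediate group 4 males and 4 females. By the methods, sorted cells of both groups came from mice that carry green fluorescent protein under the human S100β promoter, a transgene that marks Schwann cells, and the age of the mice is not in the labels. The question was how macrophage gene expression differs when a graft joins a nerve stump that has long been without axons.

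Macrophages enter an injured nerve from the blood, join the resident macrophages of the nerve, and remove myelin and axon debris. They also release cytokines that act on Schwann cells and neurons, growth factors that draw blood vessels into the bridge, and the complement component C1q, which tags debris. The IL-6 family (interleukin-6, leukaemia inhibitory factor, oncostatin M) signals through the shared receptor gp130 and STAT3, and IL-10 uses STAT3 to restrain inflammatory genes in macrophages themselves.

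The libraries carried the genes of the markers used for sorting. Cd14, Itgam (CD11b), Fcgr3 (CD16) and Emr1, the gene of F4/80, were at 436 CPM (counts scaled to the library total) or more in all 17 libraries, and the summed macrophage markers came to 21100 to 33300 CPM after delayed and 28100 to 33700 CPM after immediate repair. Several defining genes of other cell types, Sox10, Cdh5, Tek, Cd3d, Cd3e and Mpo, were under 1 CPM in every library, while other genes of those lists were not. Summed T cell markers, mostly Il7r at 125 to 353 CPM, were at 144 to 356 CPM after delayed and 131 to 299 CPM after immediate repair. Summed endothelial markers, led by Pecam1 at 14.3 to 52.9 CPM and Kdr at 6.06 to 30.7 CPM, had a median of 60.8 CPM after delayed (33.2 to 74.2) and of 33.7 CPM after immediate repair (23.6 to 66.4), and their part in the results was not tested. Summed Schwann cell markers ranged from 422 to 952 CPM after delayed and from 565 to 924 CPM after immediate repair, nearly all of it Pmp22. Summed fibroblast markers ranged from 3.75 to 360 CPM after delayed and from 2.15 to 340 CPM after immediate repair, and summed neutrophil markers from 111 to 252 and from 123 to 230 CPM. Totals of 14928745 to 26942294 counts after delayed and 17875653 to 28499407 after immediate repair did not differ beyond their spread (2-sided exact permutation test, p = 0.146). The first principal component, with 30.2% of the variance, separated the 8 male from the 9 female libraries, and 2113 of 8409 genes (25.1%) differed between the sexes in edgeR at an adjusted p under 0.05. Xist and the Y-linked genes matched the sex label in all 17 libraries. The labels give no date of surgery or library preparation, so sex and day of processing cannot be told apart, and values within each sex are given beside the main results.

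Few genes separated the macrophages of the 2 repair groups. The differences that passed the test were lower Osm, the gene of the cytokine oncostatin M, lower Heca, and higher Cap1, which encodes an actin regulator. Most genes of proinflammatory cytokines and chemokines lay below 0 in log2 fold change, delayed over immediate, and so did Il10 and the C1q genes. Apart from Osm, each of these was short of the threshold singly. Of 8409 genes tested, 3 passed an adjusted p under 0.05 in edgeR's quasi-likelihood test with Benjamini-Hochberg adjustment, a share of 0.0357%, with 1 higher and 2 lower after delayed repair. An unadjusted p under 0.05 was reached by 435 genes (5.17%), of which 209 were higher (2.49%) and 226 lower (2.69%), by 451 genes (5.36%) in males alone and by 484 (5.76%) in females alone. The p-values measure the spread between these mice. In bulk libraries, a change in the share of cells that express a gene and a change in its level per cell cannot be told apart.

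The middle of the distribution was narrow. The median log2 fold change of all 8409 genes was 0.012, the 5th and the 95th percentile were -0.32 and 0.34, and 3963 genes (47.1%) lay below 0. Falls of more than 2-fold in the estimate were found for 25 genes, 20 of them at an unadjusted p under 0.05, and rises of that size for 7 genes, 4 of them at that p. Scaling by library size alone moved the median of all genes to 0.10 and the split at an unadjusted p to 510 higher and 112 lower, so a shift of that size is not distinguished from 0 for a group of genes.

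**Figure D1:**
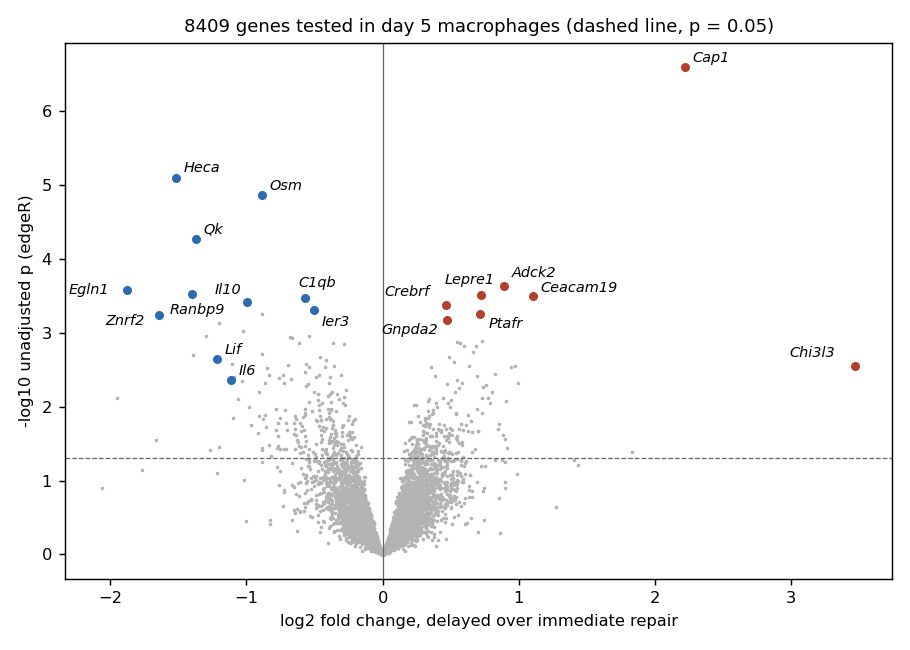
Each point is 1 of 8409 genes, with the log2 fold change of delayed over immediate repair on the x axis and the unadjusted p of edgeR, as -log10, on the y axis. Cap1 (log2 fold change 2.22) stands highest, and the labelled genes on the left include Heca, Osm, Qk, Il10, Lif and Il6.

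Oncostatin M was the cytokine with the firmest difference. Osm (chr11:4236420-4241026, GRCm38, plus strand) was at 54.7 to 108 CPM, median 87.1, after delayed repair and at 95.7 to 194 CPM, median 153, after immediate repair, all on the CPM scale with trimmed mean of M-values (TMM) factors that is used for single genes from here on. All 9 delayed libraries lay below the immediate mean and 6 of them below every immediate library, while the lowest immediate library, replicate 8, a female, lay within the delayed range. Osm fell by 0.89 on the log2 scale (SE 0.16, adjusted p = 0.0384, edgeR). The log2 fold change was -0.67 in males, whose groups did not overlap, and -1.09 in females. With only 4 males in each group, 135 of all 8409 genes tested (1.61%) were lower without overlap in males and 152 (1.81%) higher. With each library left out in turn the adjusted p ran from 0.00914 to 0.10 and stayed under 0.05 in 4 of 17 fits, without delayed replicates 1 or 4 or immediate replicates 4 or 8. With weaker filters on low counts, which tested more genes, the adjusted p of Osm was 0.0677 (filterByExpr defaults) and 0.0782 (no filter).

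Lif, the gene of leukaemia inhibitory factor, starts 21137 bases from Osm on chromosome 11 with 0 protein-coding genes between their starts. Lif was at 6.75 to 34.1 CPM, median 11.9, after delayed and at 9.59 to 71.1 CPM, median 33.1, after immediate repair. The groups overlapped, and immediate replicate 8 was again the lowest of its group. The log2 fold change of Lif was -1.22 (SE 0.35, adjusted p = 0.492, edgeR), with -1.13 in males and -1.23 in females. Il6 was at 4.60 to 23.3 CPM, median 16.6, after delayed and at 14.1 to 94.7 CPM, median 26.5, after immediate repair. Its highest value came from immediate replicate 1, and without that library the log2 fold change moved from -1.11 (SE 0.35, adjusted p = 0.56, edgeR) to -0.68. In males Il6 did not overlap, at 10.1 to 23.3 against 26.4 to 94.7 CPM.

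The wider list of proinflammatory cytokine genes lay mostly on the same side. Of 28 genes listed, 20 passed the filter on low counts, and 19 of these 20 (95%) had a log2 fold change below 0, against 47.1% of all genes. Their median was -0.42, against 0.012 for all genes, 1 was lower at the adjusted threshold (Osm) and 6 at an unadjusted p under 0.05, and none was higher at either. Over all genes 0.0238% were lower at the adjusted threshold, and 2.69% were lower and 2.49% higher at the unadjusted p. The median was -0.34 in males and -0.48 in females, from -0.49 to -0.22 with single libraries left out, and -0.34 when scaled by library size alone. Besides Osm, Lif and Il6, the unadjusted p was under 0.05 for Csf3 (granulocyte colony-stimulating factor) at -1.20 (SE 0.53), Il1a at -0.83 (SE 0.36) and Il1b at -0.49 (SE 0.23), with adjusted p of 0.923, 0.915 and 0.931 in edgeR.

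Csf3 ranged from 71.7 to 1053 CPM, median 201, after delayed and from 143 to 2102 CPM, median 780.0, after immediate repair. Males lay above females in both groups, at 426 to 1053 CPM in delayed males and 946 to 2102 CPM in immediate males. Il1a, the gene of the alarmin interleukin-1 alpha, was at 215 to 1952.5 CPM, median 559, after delayed and at 439.8 to 2235 CPM, median 1198, after immediate repair. For both genes the groups overlapped, and immediate replicate 8 was the lowest immediate library. Tnf, the gene of tumour necrosis factor, had medians of 888 and 1257 CPM and a log2 fold change of -0.47 (SE 0.28, adjusted p = 0.971, edgeR). Il33 had the largest negative estimate of the list, -1.76 (SE 0.93, adjusted p = 0.963), which rested on immediate replicates 1 and 4 at 35.3 and 55.1 CPM, the other 15 libraries lying under 10 CPM. Saa3, a gene of the acute-phase response, was at -0.63 (SE 0.52, adjusted p = 0.975), with immediate replicate 1 at 4043 CPM, and at -0.20 without that library. Ifng, the gene of interferon gamma, had 0 counts in all 17 libraries, which allows up to 0.201 CPM in the shallowest, and was not tested.

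**Figure D2:**
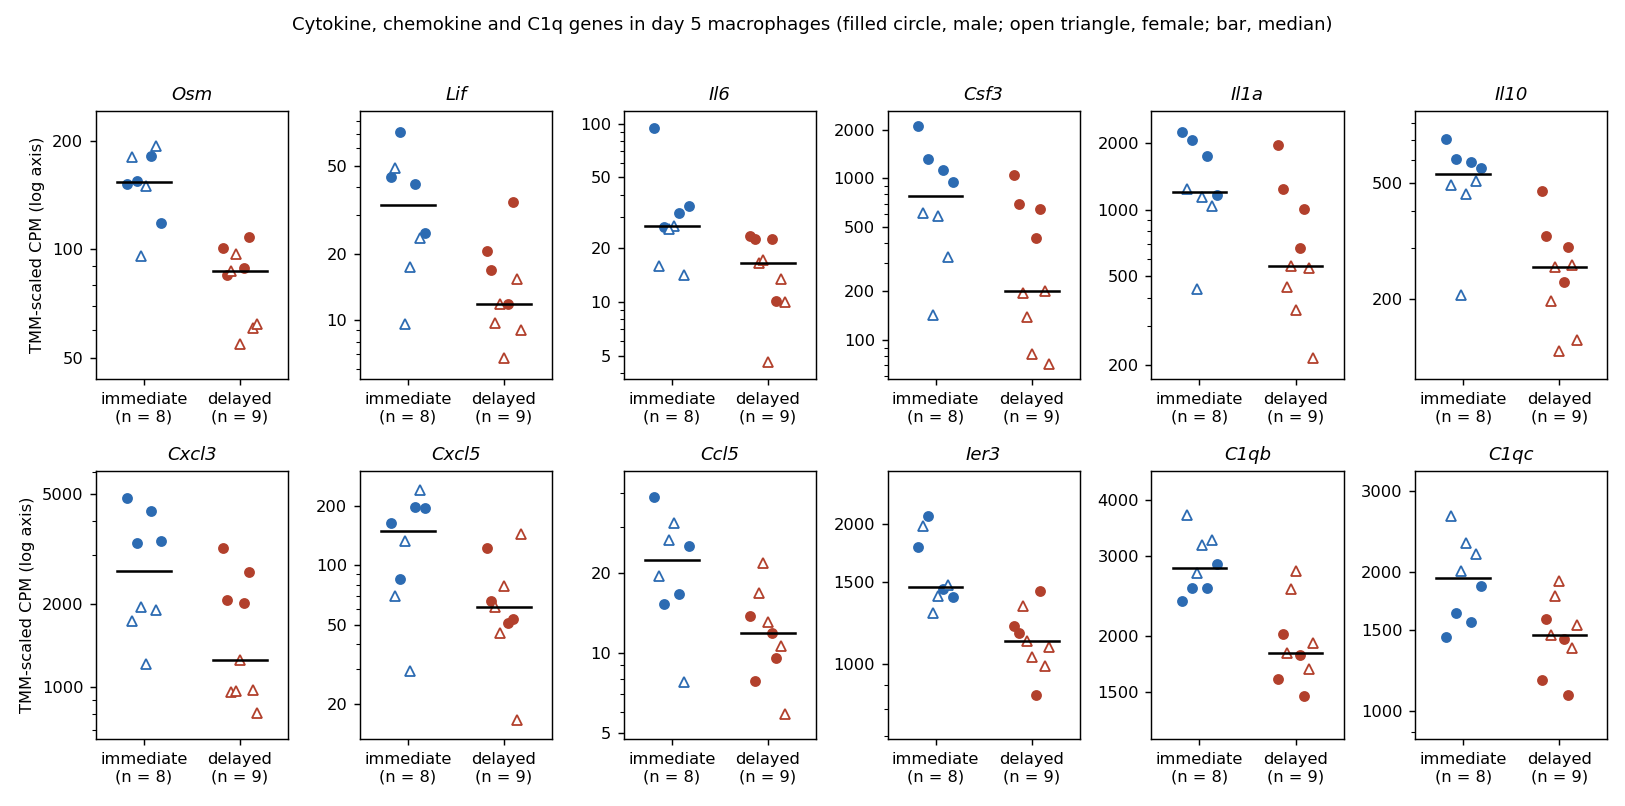
Each panel shows 1 gene, with TMM-scaled CPM on a log y axis for the 8 immediate (blue) and 9 delayed (red) libraries, circles for males, triangles for females and a bar at the median. The delayed medians lie below the immediate medians in all panels (Osm 87.1 against 153 CPM, Il10 258 against 534 CPM), and most panels overlap.

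Promoters of 5 of these inflammatory genes are printed because many cytokine, chemokine and NF-kB genes are known targets of NF-kB or AP-1 in macrophages. Each printed window holds a match to a motif given next, which most windows of the cytokine and NF-kB lists do not. Each is the 250 bases before the RefSeq transcript start on GRCm38.p6, read 5′ to 3′ on the strand of the gene, and capitals mark matches on either strand to GGG, any 2 bases and TTTCC, a form of the NF-kB motif, or to TGANTCA, a form of the AP-1 motif. The windows are chr5:30012864-30013113 (Il6, plus strand), chr5:90785851-90786100 (Cxcl3, plus strand), chr12:55492648-55492897 (Nfkbia, minus strand), chr11:4257318-4257567 (Lif, plus strand) and chr2:129309973-129310222 (Il1a, minus strand).
Il6: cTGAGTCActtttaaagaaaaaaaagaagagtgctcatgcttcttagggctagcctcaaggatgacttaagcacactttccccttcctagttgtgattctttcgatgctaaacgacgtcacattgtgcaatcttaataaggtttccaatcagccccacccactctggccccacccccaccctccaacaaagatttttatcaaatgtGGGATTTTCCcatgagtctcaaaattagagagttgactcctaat
Cxcl3: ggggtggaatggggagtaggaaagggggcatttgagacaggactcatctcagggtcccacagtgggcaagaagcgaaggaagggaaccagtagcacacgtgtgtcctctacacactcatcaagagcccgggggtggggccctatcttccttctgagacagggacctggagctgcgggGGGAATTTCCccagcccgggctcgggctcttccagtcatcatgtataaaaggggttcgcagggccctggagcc
Nfkbia: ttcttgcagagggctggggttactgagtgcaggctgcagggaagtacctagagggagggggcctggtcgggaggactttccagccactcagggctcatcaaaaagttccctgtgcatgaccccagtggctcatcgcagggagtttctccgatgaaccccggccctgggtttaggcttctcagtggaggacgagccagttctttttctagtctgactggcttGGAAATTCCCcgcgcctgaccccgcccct
Lif: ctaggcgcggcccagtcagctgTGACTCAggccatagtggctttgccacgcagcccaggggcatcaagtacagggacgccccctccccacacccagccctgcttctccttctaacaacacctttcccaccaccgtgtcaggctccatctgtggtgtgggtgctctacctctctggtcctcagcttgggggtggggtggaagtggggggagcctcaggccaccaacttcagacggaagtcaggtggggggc
Il1a: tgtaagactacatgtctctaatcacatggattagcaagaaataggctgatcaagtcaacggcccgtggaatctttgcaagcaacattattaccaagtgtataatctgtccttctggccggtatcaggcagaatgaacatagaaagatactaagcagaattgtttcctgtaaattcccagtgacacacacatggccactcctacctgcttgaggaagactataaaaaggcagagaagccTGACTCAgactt
The NF-kB letters begin 44 bases before the start of Il6, 73 before that of Cxcl3 and 29 before that of Nfkbia, and the AP-1 letters 249 before that of Il6, 228 before that of Lif and 12 before that of Il1a. Across 32851 windows in the RefSeq table, 1.41% held the NF-kB letters and 6.75% the AP-1 letters, and among 8624 windows of genes tested here 1.52% and 4.79% did. Of 14 windows of the cytokine list 14.3% held the NF-kB and 28.6% the AP-1 letters, of 7 windows of the CXC chemokine list 42.9% and 28.6%, and of 36 windows of the NF-kB list 13.9% and 16.7%. A match describes the sequence and shows neither binding nor a cause. The lists were written by hand with earlier results known and hold known NF-kB targets, so higher shares in them are not a test. The shares cover whole lists, not only the genes that lay lower.

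Il10, which encodes the anti-inflammatory cytokine IL-10, was at 133 to 467 CPM, median 258, after delayed and at 206 to 705 CPM, median 534, after immediate repair. All 9 delayed libraries lay below the immediate mean. Without the lowest immediate library, replicate 8, the immediate range was 456 to 705 CPM, and only delayed replicate 1 at 467 CPM lay within it. The log2 fold change was -0.99 (SE 0.23, adjusted p = 0.288, edgeR), and it passed in DESeq2 and when sex was a covariate. In males the groups did not overlap, at 229 to 467 against 560 to 705 CPM, as for 1.61% of all genes, lower in males. The log2 fold change of Il10 was -0.89 in males and -1.06 in females. The receptor chains showed no such difference, with Il10ra at 0.12 (SE 0.20, adjusted p = 0.979) and Il10rb at -0.02 (SE 0.07, adjusted p = 0.991).

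Among 23 genes of IL-10, its receptor and STAT3 targets, all tested, 14 lay below 0 with a median of -0.04, 0 passed the adjusted threshold in edgeR, and 3 were lower and 0 higher at an unadjusted p under 0.05. Over all genes 47.1% lay below 0, 2.69% were lower and 2.49% higher. The 3 lower were Il10, Ddit4 and Tgfb1. Ddit4, a stress-induced inhibitor of mTORC1, was at 9.82 to 17.9 CPM after delayed and at 10.1 to 25.1 CPM after immediate repair, with a log2 fold change of -0.68 (SE 0.18, adjusted p = 0.405, edgeR). In males its groups did not overlap. Tgfb1, the gene of transforming growth factor beta 1, was at -0.45 (SE 0.21, adjusted p = 0.931), with -0.76 in males and -0.13 in females.

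Chemokine genes, which call monocytes and neutrophils into tissue, followed the cytokines in direction. All 9 CXC chemokine genes tested lay below 0, with a median of -0.32, 3 of them lower at an unadjusted p under 0.05. Of 10 CC chemokine genes, 8 lay below 0 with a median of -0.40, and 1 was lower at that p. Over all genes, 47.1% lay below 0 and 2.69% were lower at that p. No gene of either list passed the adjusted threshold in edgeR. The CXC median ran from -0.37 to -0.22 and the CC median from -0.50 to -0.28 with single libraries left out, and scaling by library size alone left both negative at -0.23 and -0.31.

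Cxcl3, which draws neutrophils, was at 808 to 3191 CPM, median 1258, after delayed and at 1213 to 4848 CPM, median 2635, after immediate repair. Its level followed sex, with all 8 males above all 9 females, and within males the groups did not overlap, at 2024 to 3191 against 3326 to 4848 CPM. The log2 fold change of Cxcl3 was -0.78 (SE 0.31, adjusted p = 0.84, edgeR), and with sex as a covariate Cxcl3 passed. Cxcl5, another neutrophil attractant, was at -0.97 (SE 0.37, adjusted p = 0.817), with medians of 61.6 and 148 CPM. Pf4, platelet factor 4, a chemokine that tissue macrophages also express, was at -0.35 (SE 0.14, adjusted p = 0.846). Among CC chemokines, Ccl5 was at 5.90 to 21.9 CPM after delayed and 7.79 to 38.9 CPM after immediate repair (-0.87, SE 0.27, adjusted p = 0.561), Ccl4 at -0.54 (SE 0.26) and Ccl2, the main attractant of monocytes, at -0.42 (SE 0.20, adjusted p = 0.931). In males Ccl5 did not overlap between groups, whereas Ccl2 was at -0.08 in males and -0.73 in females. Cxcl10, an interferon-induced chemokine, was at -0.32 (SE 0.29, adjusted p = 0.975).

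Chemokine receptors lay nearer 0, with a median of -0.07 over 11 genes and 1 at an unadjusted p under 0.05, against 5.17% of all genes. This was Ccrl2, an atypical receptor induced by inflammatory stimuli, at 118 to 645 CPM after delayed and 314 to 961 CPM after immediate repair (-0.64, SE 0.26, adjusted p = 0.846, edgeR). The receptors of complement fragments, C3ar1 at 0.13 (SE 0.10) and C5ar1 at -0.10 (SE 0.11), had unadjusted p of 0.19 and 0.353.

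Genes of the NF-kB pathway, the transcription factor that drives much of the cytokine response, lay slightly lower. Of 34 genes tested, 27 lay below 0 (79.4%) with a median of -0.17, 10 were lower (29.4%) and 2 higher (5.88%) at an unadjusted p under 0.05, and 0 passed the adjusted threshold in edgeR. The shares over all genes were 47.1% below 0, 2.69% lower and 2.49% higher, and the list's median was -0.080 when scaled by library size alone. Most of those lower are themselves induced by NF-kB and feed back on it or on survival. Ier3, an early response gene that protects from apoptosis, was at 858 to 1435 CPM after delayed and 1288 to 2089 CPM after immediate repair, with 7 of 9 delayed libraries below every immediate one (-0.50, SE 0.12, adjusted p = 0.297, edgeR). Ier3 passed in DESeq2. Nfkb1, the p105/p50 subunit, was at 79.8 to 130 CPM against 113 to 180 CPM, also with 7 delayed libraries below the immediate range (-0.42, SE 0.13, adjusted p = 0.492). Nfkbid was at -0.46 (SE 0.14), and Nfkbia, the inhibitor IkB-alpha, at -0.29 (SE 0.10, adjusted p = 0.70). Bcl2a1b, a survival factor with near-identical copies among which reads may be split, was at -0.36 (SE 0.10, adjusted p = 0.405), with 8 of 9 delayed libraries below every immediate library.

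Immediate early genes lay on both sides, with 19 of 34 below 0, a median of -0.04, and 6 lower and 0 higher at an unadjusted p under 0.05 (2.69% and 2.49% of all genes), and none adjusted in edgeR. Tissue digestion and sorting also induce such genes, and their part was not tested. The leading members were Gem, a small GTPase, at 18.6 to 79.5 CPM after delayed and 21.1 to 187 CPM after immediate repair (-1.09, SE 0.33, adjusted p = 0.538), and Maff, a small MAF transcription factor (-0.57, SE 0.20, adjusted p = 0.762). Gem did not overlap between groups in males, and immediate replicate 8 was the lowest immediate library. The signal receptors upstream gave no common direction. The median of 19 Toll-like receptor and adaptor genes was 0.01, with 2 lower (Lbp and Cd14) and 2 higher (Tlr4 and Tirap) at an unadjusted p under 0.05. Cd14, the lipopolysaccharide co-receptor and one of the sorting markers, was at 4874.5 to 8808 CPM after delayed and 6499 to 11734 CPM after immediate repair (-0.39, SE 0.14, adjusted p = 0.804). Tlr4 itself was at 0.39 (SE 0.18, adjusted p = 0.923). Of 14 inflammasome genes, Naip2 was at -0.47 (SE 0.18) and Naip6, a near copy, at 0.90 (SE 0.38), so their reads may be split, and Nlrp3 was at -0.39 (SE 0.19, adjusted p = 0.931).

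C1q, the recognition part of the classical complement pathway, is made by macrophages from 3 neighbouring genes. C1qb was at 1470.1 to 2789.6 CPM, median 1826, after delayed and at 2388 to 3718 CPM, median 2821, after immediate repair. Of 9 delayed libraries, 7 lay below every immediate library, and the other two, replicates 7 and 9, were females. The log2 fold change of C1qb was -0.57 (SE 0.13, adjusted p = 0.282, edgeR), with -0.60 in males, whose groups did not overlap, and -0.58 in females, and it passed in DESeq2 and with sex as covariate. C1qc was at -0.40 (SE 0.14, adjusted p = 0.691) and C1qa at -0.34 (SE 0.14, adjusted p = 0.846), and in females neither overlapped between groups.

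Other complement genes did not follow C1q. The median of 16 complement genes was 0.004, with C1qa, C1qb and C1qc lower and Cd59a, a membrane inhibitor of complement, higher (0.85, SE 0.34, adjusted p = 0.84) at an unadjusted p under 0.05. Among 21 genes of resident macrophages the median was -0.10, and the 5 lower at that p, against 2.69% of all genes, were the 3 C1q genes, Apoe and Pf4. Apoe, the lipid carrier apolipoprotein E, was at 10489 to 26474 CPM after delayed and 17507 to 28442 CPM after immediate repair (-0.39, SE 0.17, adjusted p = 0.877). The scavenger receptors Mrc1, at 0.11 (SE 0.23), and Cd163, at 0.01 (SE 0.63), had estimates near 0 with wide errors, and both were below 0 in some of the fits that left out a library. The resident median was -0.02 when scaled by library size alone, with 12 of 21 genes below 0 in the fit with TMM factors.

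Growth factors that act on nerve and vessel had the lowest median of the 33 lists, -0.46 over 19 genes, 15 of them below 0, with 6 lower at an unadjusted p under 0.05 and 1, Osm, lower at the adjusted one, against 47.1% of all genes below 0 and 2.69% lower at the unadjusted p. Lif and Osm belong to this list as well as to the cytokines. The others were Pdgfa, a platelet-derived growth factor (-0.72, SE 0.23, adjusted p = 0.561, edgeR), Areg and Hbegf, ligands of the EGF receptor, and Tgfb1. Areg was at 28.4 to 107 CPM, median 48.0, after delayed and at 45.0 to 246 CPM, median 94.0, after immediate repair, and its groups overlapped (-0.87, SE 0.32, adjusted p = 0.793). Without immediate replicate 6, Areg was at -0.57. The neurotrophic factor genes Bdnf, Gdnf and Ntf3 did not pass the filter on low counts. The list's median was -0.21 in males and -0.57 in females, the lowest in neither sex. Cytokines lay at -0.34 in males and CC chemokines at -0.65 in females.

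Of 30 angiogenic genes tested, 23 lay below 0 with a median of -0.21, 6 were lower and 0 higher at an unadjusted p under 0.05 (all genes, 47.1% below 0, 2.69% lower and 2.49% higher), and none passed the adjusted threshold in edgeR. Vegfa, the main signal for vessel growth, was at 163 to 290 CPM, median 240, after delayed and at 243 to 357 CPM, median 291, after immediate repair. Of 9 delayed libraries, 5 lay below every immediate library (-0.38, SE 0.14, adjusted p = 0.766). Genes induced by hypoxia, by contrast, showed no common direction, with a median of -0.02 over 34 genes and 17 on each side of 0. The hypoxia genes at an unadjusted p under 0.05 were Egln1, Ddit4 and Vegfa, all lower. Among 21 glycolysis genes the median was 0.02, and Hk2, the inducible hexokinase, was the leading member at 63.9 to 147 CPM after delayed and 101 to 194 CPM after immediate repair (-0.54, SE 0.16, adjusted p = 0.492). Within each sex taken alone Hk2 did not overlap.

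**Figure D3:**
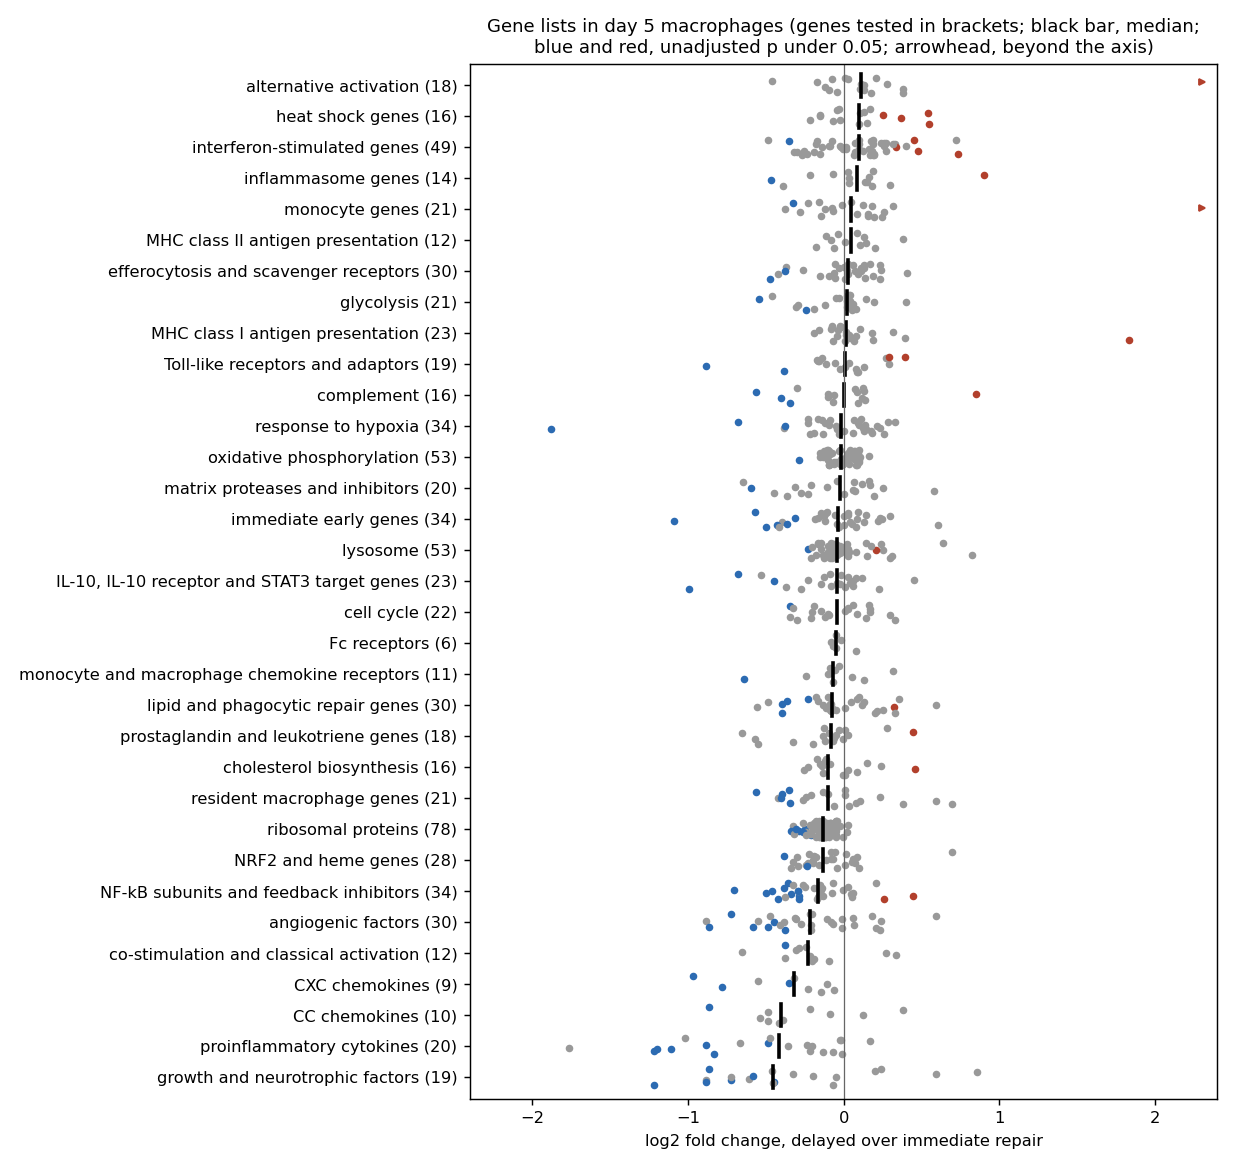
Each row is 1 of 33 gene lists, with the log2 fold change of each tested gene, delayed over immediate, on the x axis, genes at an unadjusted p under 0.05 in blue (lower) or red (higher), and a bar at the median. Growth factors (median -0.46), cytokines (-0.42), CC (-0.40) and CXC chemokines (-0.32) lie lowest, and Chi3l3 at 3.47 lies beyond the axis.

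Heca had the largest fall among genes that passed, and it was the only gene lower without overlap between the groups. Heca, the mouse homologue of the fly headcase gene (chr10:17868612-17948067, minus strand), was at 1.8 to 8.24 CPM, median 6.46, after delayed and at 10.4 to 30 CPM, median 15.4, after immediate repair. The groups do not overlap in these 17 libraries, which was so for 1 gene lower and 1 higher of 8409 (0.0238%). Heca fell by 1.52 on the log2 scale (SE 0.25, adjusted p = 0.0333, edgeR), with -1.73 in males and -1.39 in females. With each library left out the adjusted p ran from 0.00948 to 0.0934 and stayed under 0.05 in 5 of 17 fits, without delayed replicates 1, 4 or 9 or immediate replicates 6 or 7. Scaled by library size alone, Heca was at -1.43 with an adjusted p of 0.169.

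Several other genes had falls of similar size that did not pass the threshold in this fit of edgeR. Qk passed with sex as a covariate, and Qk, Egln1, Ranbp9 and Znrf2 in a fit of all 4 macrophage groups. In DESeq2 Qk, Egln1 and Ranbp9 passed. Qk encodes Quaking, an RNA-binding protein that controls splicing, and was at 55.4 to 181 CPM, median 74.0, after delayed and at 107 to 369 CPM, median 229, after immediate repair (-1.37, SE 0.27, adjusted p = 0.111). Egln1, the prolyl hydroxylase that marks hypoxia-inducible factor for degradation, was at 3.08 to 16.5 CPM after delayed and 10.6 to 115 CPM after immediate repair (-1.88, SE 0.43, adjusted p = 0.282). Ranbp9, a scaffold of a ubiquitin ligase complex, was at -1.40 (SE 0.32, adjusted p = 0.282), and Znrf2, a RING finger ubiquitin ligase, at -1.64 (SE 0.40, adjusted p = 0.297).

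Ube2q1, a ubiquitin-conjugating enzyme, was at -0.88 (SE 0.22, adjusted p = 0.297). Cul3, the scaffold of a family of ubiquitin ligases, was at -1.30 (SE 0.34, adjusted p = 0.405), Csnk2a2, a catalytic subunit of casein kinase 2, at -1.20 (SE 0.30, adjusted p = 0.347), Brd1, a bromodomain protein, at -1.03 (SE 0.26, adjusted p = 0.405) and Osbp, an oxysterol-binding protein, at -1.10 (SE 0.32, adjusted p = 0.492). Ube2q1, Csnk2a2 and Brd1 passed in DESeq2, and Cul3 and Brd1 in the fit of all 4 macrophage groups. Cul3, Csnk2a2, Brd1 and Osbp were chosen for the text after their values were seen. Immediate replicate 8 was the highest immediate library for Heca, Qk, Egln1, Ranbp9 and Cul3, as it was the lowest for Osm, Lif and Il10. Of the 17 fits that left out a library, the one without immediate replicate 8 gave the smallest falls of Heca (-1.35), Qk (-1.25), Egln1 (-1.42) and Ranbp9 (-1.24).

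The same genes were compared in the other libraries of the series, here in CPM without TMM factors. In sorted Schwann cells of day 5, all from mice that also gave a macrophage library, median Heca was 10.7 CPM after delayed (n = 9) and 49.5 CPM after immediate repair (n = 7), and median Qk 55.0 and 196 CPM. In macrophages of day 14, Heca was at 19.2 to 31.3 CPM after delayed (n = 7) and 12.1 to 34.3 CPM after immediate repair (n = 8), and Qk at 304 to 372 and 198 to 378 CPM. In the distal stump at day 5, made with another library kit, Heca was at 44.3 to 59.9 CPM after delayed and 41.1 to 50.4 CPM after immediate repair. Median Heca was lower after delayed repair in both sorted cell types at day 5, and in neither the day 14 macrophages nor the stump. Qk in the stump was lower after delayed repair as well, at 418 to 688 against 598 to 911 CPM, and no test was run on these other tissues. Transcript length and GC content were taken from the longest GENCODE transcript of each gene. The 10 genes with the smallest p among those lower had medians of 3465.5 bases and 51.2% GC. Over 8359 genes tested with such a transcript the medians were 3400 bases and 49.1%.

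**Figure D4:**
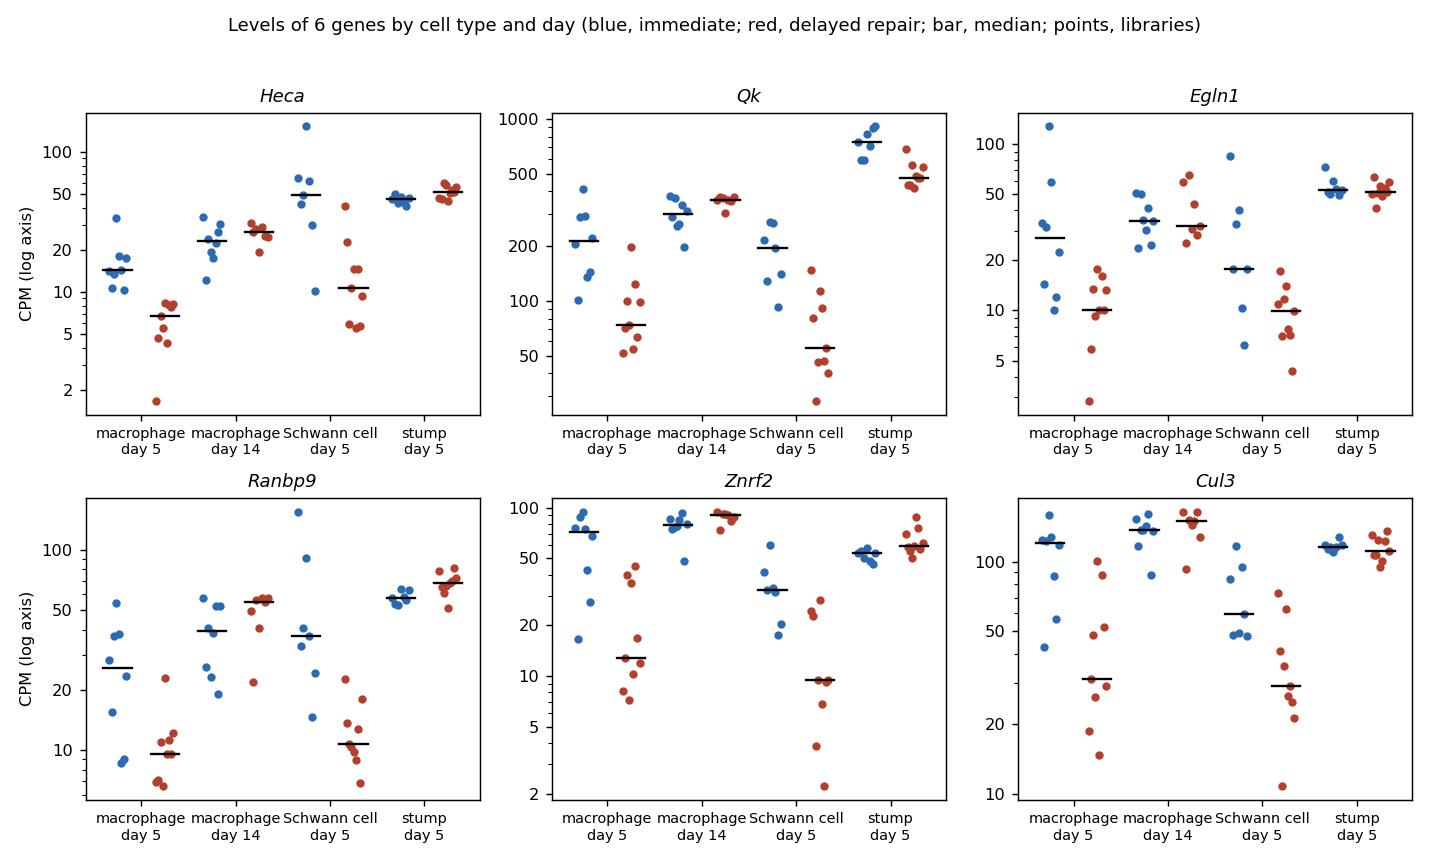
Each panel shows 1 gene in CPM on a log y axis, by cell or tissue type and day, with points for libraries of immediate (blue) and delayed (red) repair and bars at the medians. In macrophages and Schwann cells of day 5 the delayed medians lie lower (Heca 6.79 against 14.3 CPM in macrophages), while in macrophages of day 14 they lie at or above the immediate medians for Heca (27.0 against 23.2 CPM) and Qk (361 against 302 CPM).

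Cap1, which encodes cyclase-associated protein 1, an actin-turnover factor, rose after delayed repair, and its level fell into 2 separate ranges of mice. Cap1 (chr4:122859047-122886056, minus strand) was at 205 to 257 CPM in 7 delayed libraries, at 44.8 and 55.0 CPM in delayed replicates 7 and 8, and at 33.0 to 48.2 CPM in the 8 immediate libraries. The log2 fold change was 2.22 (SE 0.29, adjusted p = 0.00212, edgeR), with 2.44 in males and 2.01 in females, and Cap1 passed in 17 of 17 fits that left out a library. In CPM without TMM factors, macrophages and Schwann cells of the same mouse lay on the same side of 100 CPM in 31 of 31 mice, 16 of 16 at day 5. At day 14 the high range held 1 of 7 delayed and 2 of 8 immediate macrophage libraries. In the distal stump all 16 libraries lay above 100 CPM, from 198 to 350 CPM. In the sorted cells, high or low Cap1 was thus a property shared by both cell types of a mouse.

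Ppt1, a lysosomal enzyme gene that overlaps Cap1 on the other strand, did not follow it, at 149 to 282 CPM after delayed and 186 to 258 CPM after immediate repair (0.02, SE 0.11). The kit used for sorted cells does not mark strand, so reads of the overlap cannot be told apart.

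**Figure D5:**
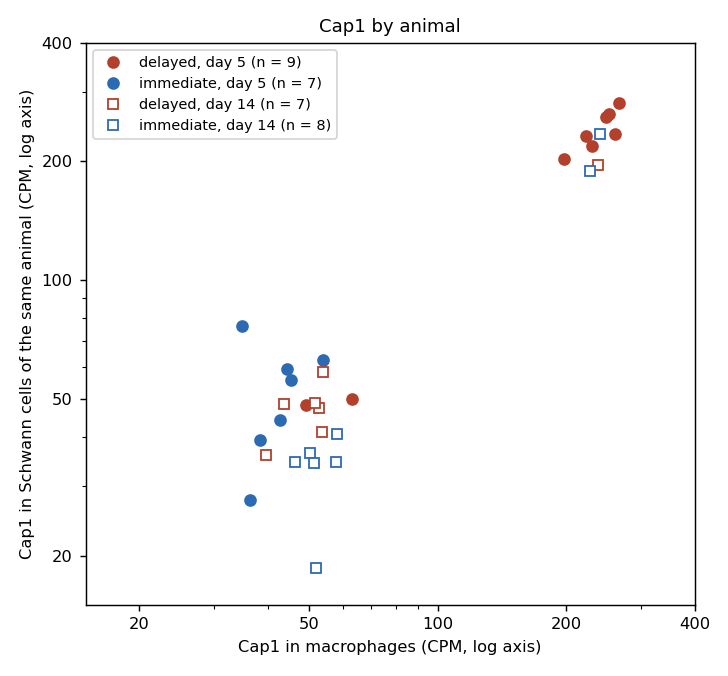
Each point is 1 mouse, with Cap1 in macrophages on the x axis and in Schwann cells on the y axis, both in CPM on log axes, filled for day 5 and open for day 14. The high mice lie at 198 to 266 CPM in macrophages and 189 to 282 CPM in Schwann cells, and all others at 63.0 CPM or less and 76.3 CPM or less, with no mouse high on 1 axis alone.

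Among genes higher after delayed repair, Cap1 alone passed in edgeR, and the others named here came next by p. DESeq2 called 6 higher, Adck2, Cap1, Ceacam19, Crebrf, Lepre1 and Ptafr, and edgeR with sex as covariate called Cap1 and Ceacam19. Gnpda2, an enzyme of amino sugar metabolism, was the only gene higher without overlap, at 18.9 to 23.6 CPM after delayed and 10.2 to 17.8 CPM after immediate repair (0.47, SE 0.12, adjusted p = 0.331, edgeR). Its annotation overlaps that of Guf1 on the other strand, from which its reads may not be separated. Crebrf, a regulator of the unfolded protein response factor CREB3, was at 34.6 to 56.6 CPM against 25.7 to 36.4 CPM (0.46, SE 0.11, adjusted p = 0.291) and did not overlap within either sex. Ptafr, the receptor of platelet-activating factor, was at 74.6 to 195 CPM against 57.7 to 98.9 CPM (0.71, SE 0.17, adjusted p = 0.297). Adck2, a mitochondrial kinase-like protein, was at 0.89 (SE 0.20), Lepre1, a collagen prolyl hydroxylase, at 0.72 (SE 0.17) and Ceacam19 at 1.11 (SE 0.25), each with an adjusted p of 0.282. Slc17a5, the lysosomal sialic acid exporter, Polr1a, the largest subunit of RNA polymerase I, and Rad50, a DNA repair protein, were at 0.55, 0.73 and 0.57, each with an adjusted p of 0.405.

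Without overlap in males and, separately, without overlap in females were 6 genes, with Cdc73, Chst11, Heca and Hk2 lower (0.0476% of genes) and Crebrf and Gnpda2 higher (0.0238%). Within males alone 135 genes lower (1.61%) and 152 higher (1.81%) did not overlap, and within females 65 (0.773%) and 92 (1.09%).

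Markers of alternative activation, the tissue repair state of macrophages, lay on no common side. Of 18 genes, 12 lay above 0 with a median of 0.11, which was -0.15 in males and 0.14 in females. Chi3l3, the chitinase-like protein Ym1, had the largest estimate of all genes, 3.47 (SE 1.02, adjusted p = 0.492, edgeR), from 2 female libraries, delayed replicates 5 and 8, at 774 and 630.4 CPM. The other 7 delayed libraries were at 6.94 to 51.6 CPM and the immediate libraries at 4.82 to 27.8 CPM. Reads of Chi3l3 may be shared with a close copy.

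Of 12 genes of co-stimulation and classical activation, 10 lay below 0 with a median of -0.23, against 47.1% of all genes below 0, and 1, Cd38, was lower at an unadjusted p under 0.05, against 2.69% (-0.37, SE 0.18, adjusted p = 0.931, edgeR). Ptgs2, the inducible cyclooxygenase, was at 411 to 4882 CPM after delayed and 1490.4 to 7055 CPM after immediate repair (-0.65, SE 0.40, adjusted p = 0.975). The prostaglandin receptor Ptger4, which raises cyclic AMP, was at 0.44 (SE 0.15, adjusted p = 0.692).

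Heat shock genes held 4 of 16 higher at an unadjusted p under 0.05, Hsf1, Hsph1, Hspa1a and Hspa1b, against 2.49% of all genes, and 0 lower, with a median of 0.10 and none past the adjusted threshold in edgeR. Hspa1a, the inducible HSP70, was at 326 to 982 CPM after delayed and 301 to 699.8 CPM after immediate repair (0.55, SE 0.22, adjusted p = 0.846). In males Hspa1a was at 1.02 and in females at 0.10, and the interaction with sex did not pass (unadjusted p = 0.035, adjusted p = 0.98). Hspa1b, a near-identical copy of Hspa1a, gave 1.08 in males and 0.05 in females, and the pair may share reads. At day 14 all 16 heat shock genes lay below 0, with a median of -0.23. Tissue digestion and sorting, which preceded every macrophage library, also induce heat shock genes, and their part was not tested.

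Interferon-stimulated genes, which many cells raise after sensing nucleic acids, had medians of opposite sign in the sexes, a difference that was not tested for the list. Their median over 49 genes was 0.10, with 4 higher and 1 lower at an unadjusted p under 0.05 (2.49% and 2.69% of all genes). In males it was -0.17, with 36 of 49 below 0, and in females 0.20, with 10 of 49 below 0. The mean log2(CPM + 1) over the list overlapped between groups in males, at 5.34 to 5.98 after delayed and 5.52 to 6.08 after immediate repair, and in females, at 5.96 to 6.41 and 5.94 to 6.08. The interaction of repair and sex had an unadjusted p under 0.05 in 10 of 49 genes, all with the male value lower, against 352 of 8409 genes (4.19%), and 0 genes passed the adjusted threshold in edgeR, where DESeq2 called 3 of all genes. Parp14, an ADP-ribosyltransferase, was at -0.63 in males, whose groups did not overlap, and at 0.35 in females (unadjusted p = 7.58e-05). Oas3, a sensor of double-stranded RNA, was at -0.63 in males and 0.95 in females (unadjusted p = 0.000162), and Herc6, a ligase of the interferon pathway, at -0.07 and 0.73. In females neither Oas3, at 53.5 to 80.5 against 23 to 38.2 CPM, nor Herc6, at 53.8 to 62.2 against 29.6 to 39.2 CPM, overlapped. These genes were chosen after their values were seen.

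Antigen presentation showed little. The median was 0.04 over 12 genes of MHC class II and 0.01 over 23 of class I, with 1 of these 35 at an unadjusted p under 0.05, H2-Q6 (1.83, SE 0.84, adjusted p = 0.923, edgeR), a member of a family whose copies may share reads. Over all genes 5.17% reached that p. Fc receptor genes had a median of -0.05 over 6 genes and none at an unadjusted p under 0.05.

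Genes of debris handling, the macrophage task most tied to nerve clearance, were near 0 as groups. The median was -0.08 over 30 lipid and phagocytic repair genes, 0.03 over 30 efferocytosis and scavenger receptors and -0.04 over 53 lysosomal genes, and none passed the adjusted threshold in edgeR. Singly, Olr1, a receptor of oxidized lipoprotein, was at 143 to 291 CPM after delayed and 225 to 498 CPM after immediate repair, with 6 of 9 delayed libraries below every immediate library (-0.48, SE 0.16, adjusted p = 0.692). Fabp5, a fatty acid carrier, was at -0.39 (SE 0.14), Cd63, a tetraspanin of lysosomes, at -0.37 (SE 0.14) and Npc1, the lysosomal cholesterol exporter, at -0.23 (SE 0.10), with adjusted p of 0.787, 0.807 and 0.87. Abcg1, a cholesterol exporter of the cell surface, was at 0.32 (SE 0.13, adjusted p = 0.87). The lysosomal proteases Ctsd and Ctsl were at -0.18 (SE 0.10) and -0.11 (SE 0.15).

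Matrix-degrading enzymes and energy genes were likewise near 0. Mmp12, macrophage elastase, was at 197 to 903 CPM after delayed and 103 to 525 CPM after immediate repair (0.58, SE 0.34, adjusted p = 0.968, edgeR), and Timp1, an inhibitor of such proteases, at -0.60 (SE 0.26, adjusted p = 0.923). Without delayed replicate 8, Mmp12 was at 0.365. Oxidative phosphorylation had a median of -0.02 over 53 genes, cell cycle -0.04 over 22 and cholesterol synthesis -0.10 over 16. Ribosomal protein genes lay below 0 in 76 of 78 cases with a small median of -0.13, but -0.03 when scaled by library size alone.

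Whether the effect of delay at day 5 differed from that at day 14 was tested as an interaction over 32 macrophage libraries, in which other mice were used at each day. In edgeR, Heca and Osm passed among 8949 genes (2 genes, 0.0223%), and 323 (3.61%) reached an unadjusted p under 0.05. Osm was at -0.89 at day 5 and 0.38 at day 14, a difference of 1.27 (SE 0.24). Heca was at -1.52 and 0.20, a difference of 1.72 (SE 0.32). With each of the 32 libraries left out in turn, Heca passed in 9 fits, Osm in 11, and no gene in 18.

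The cytokine list had a median of 0.12 at day 14, with 4 of 17 genes below 0, against 4087 of 8273 genes tested at both days. For the interaction 6 of its genes had an unadjusted p under 0.05, all lower at day 5, against 3.61% of 8949 genes in either direction. Il1b went from -0.49 to 0.44, a difference of 0.93 (unadjusted p = 0.00622), Il6 from -1.11 to 0.28 (1.39, unadjusted p = 0.0103) and Areg from -0.87 to 0.65 (1.52, unadjusted p = 0.00123). Ccrl2 went from -0.64 to 0.63 (1.26, unadjusted p = 0.0012). The CXC list had 2 of 9 genes below 0 at day 14, with a median of 0.17, while C1qb went from -0.57 to 0.04 and Il10 from -0.99 to -0.02. Ccl5, Ccl4, Pf4 and Cxcl10 lay below 0 at both days, with Ccl5 at -0.87 and -1.45. At day 14 itself edgeR called 0 of 8589 genes, and 189 (2.2%) reached an unadjusted p under 0.05.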

How the data were processed

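RNA-seq was read in 79 libraries, of which the 17 day 5 macrophage libraries were compared, with 15 macrophage libraries of day 14 for the interaction and Schwann cell and distal stump libraries for levels of a few genes. Macrophages had been sorted as F4/80+ CD14+ CD16/32+ CD11b+ cells negative for a mix of markers of other cells, and RNA of 1000 cells was amplified with an oligo-dT kit that does not mark strand. The authors deposited estimated counts per gene, of which 0.842% were not whole (tolerance 1e-06), and these were rounded. The submitters' processing notes name cutadapt 1.8, TopHat2 2.1.1, Cufflinks 2.2.1, Cuffnorm and mm10, and the program that wrote the counts is not given in the sources used here. No column of the table belonged to an unlisted sample (0 unused columns).

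The filter kept the 8409 of 23361 genes that reached 5 CPM in 6 or more libraries. Counts were scaled by TMM and tested in edgeR 4.0.16 by quasi-likelihood (R 4.3.3, limma 3.58.1), delayed over immediate repair, with Benjamini-Hochberg adjustment over all genes tested and a threshold of 0.05. CPM of single genes carry the TMM factors, and CPM of markers, of other tissues and of Cap1 by mouse do not. Effects within each sex and interactions with sex and day were fitted with the same test. Levels do not include gene length, so they are not compared between genes. DESeq2 1.42.0, limma-voom, other scalings and filters, sex as a covariate, a replicate block, all 4 macrophage groups in 1 fit, each sex alone and each library left out were the alternatives. On simulated counts for 8290 genes the test recovered 91.5% of 189 genes changed 2-fold, with 10 false calls. Because 189 genes were changed there, the adjusted threshold was less strict than in the measured data, where few genes passed. That share therefore does not give the part of 2-fold changes found here. Gene positions are those of GENCODE on GRCm38, and figures were drawn with matplotlib 3.10.9 (Python 3.11.15).

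The gene lists and the genes named were chosen with earlier results of these data known. Named were genes past the adjusted threshold, the 10 with the smallest p in each direction, up to 3 with the smallest p of each list described, the sorting markers, the sex check, defining genes of a list, and the genes that the study singles out. Chosen after their values were seen were Csf3, Il33, Nfkbia, Nfkbid, C1qa, Hbegf, Hsf1, Cul3, Csnk2a2, Brd1, Osbp, Cdc73, Chst11, Ppt1, Parp14, Oas3 and Herc6. Promoters of Osm, Il10 and Csf3 were not used here, and some genes are not reported here.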

Additional observations from a re-analysis of the deposited data

Results flagged for a closer look

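In 208 groups of values, 10 held a library that stood far from the others of its group, where chance gives about 1 in 20, with 4 after delayed and 6 after immediate repair. All 10 were the highest of their group. After delayed repair these were Ranbp9 in replicate 9 (20.9 CPM, the next library at 11.5), Slc17a5 in replicate 8 (55.9, next 43.5), Lif in replicate 4 (34.1, next 20.5) and the ribosomal gene Rps20 in replicate 8 (62.3, next 45.2). After immediate repair they were Heca and Cd163 in replicate 8 (30 CPM, next 18.7, and 74.4 CPM, next 40.9), Oas3 in replicate 3 (75.2, next 42.4) and, all in replicate 1, Il6 (94.7, next 34.6), Cd38 (1150, next 796) and Saa3 (4040, next 1840). Replicate 1 of immediate repair thus held 3 of the 10.

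In the interaction test of edgeR, the effect of delay differed between day 5 and day 14 for Heca, with a log2 fold change at day 14 minus day 5 of 1.72, and for Osm, with 1.27. No gene passed when scaled by library size alone, nor in 18 of 32 fits that left out a library. No cause of these patterns was tested.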

How the results depend on the processing

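The count of 3 genes past the adjusted threshold was 17 with DESeq2, 8 with sex as a covariate, 12 with the replicate block, 11 with all 4 macrophage groups in 1 fit, 1 in males, 0 in females and 1 to 3 with single libraries left out. It was 2 when scaled by library size alone (Heca lost), with the filterByExpr defaults (Osm lost) and without a filter (Osm lost). Each sex alone has fewer libraries. Cap1 passed in all 17 leave-one-out fits, Heca in 5 and Osm in 4. The count of 435 at an unadjusted p was 1534 without a filter, 735 with limma-voom and 690 with the replicate block. The day interaction called 9 genes with DESeq2 (2 in edgeR), 0 when scaled by library size alone and 0 to 3 with single libraries left out, and the sex interaction 3 with DESeq2 (0 in edgeR). Genes without overlap were 4 when scaled by library size alone, against 2, and 2 to 5 with single libraries left out.

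The alternatives were run for 103 genes, which include the tested genes given a fold change in the text. Of their fits 2763 kept direction and side of the threshold, 37 gained the call, 33 lost it and 39 changed direction, none of these 39 past the threshold. Direction changed for Il10ra (-0.0098 in females), Il10rb (0.064 by library size alone, 0.054 in males), Herc6 (-0.068 in males), Oas3 (-0.63 in males), Il33 (0.49 in females) and Mrc1 (-0.14 in males, -0.083 to 0.19 with single libraries left out). Cd163 was at -0.0042 with DESeq2, -0.0046 with its size factors in edgeR, -0.0057 with filterByExpr, -0.0068 without a filter, -1.02 with limma-voom, -0.36 with sex as a covariate, -0.88 with the replicate block, -0.93 in males and -0.49 to 0.31 with single libraries left out. Parp14 was at 0.12 by library size alone, 0.023 with limma-voom, 0.35 in females and -0.088 to 0.064 with single libraries left out. Ppt1 was at -0.020 with the replicate block, -0.026 in females and -0.021 to 0.078 with single libraries left out. The cause of these differences was not tested.

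Same-numbered libraries of the 2 groups are not said by the labels to be paired. Over 8 such pairs the correlation of deviations was 0.17 to 0.49 in 7 and -0.021 in 1, and 3 of 8 libraries matched best with their own number. Deviations were taken from the mean of the repair group, so sex stays in them. Both libraries of each pair are of the same sex, so pairing and sex cannot be told apart in these values. With the replicate block the genes that passed besides Cap1, Heca and Osm were C1qb, Ceacam19, Csf3, Csnk2a2, Cxcl3, Il10, Il1a, Pdgfa and Qk, with an adjusted p of 0.00165 for Csf3 and 0.0296 for Il1a, and in the day interaction Heca and Qk passed and Osm did not. The sex interaction fitted within the block, an alternative chosen after seeing the data, called 0 of 8409 genes in edgeR, with 365 at an unadjusted p under 0.05 (352 without the block).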
